A study of Homo sapiens with 12 samples.

Results

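The genes described here are the nuclear-encoded genes of respiratory complexes I and III. They were taken from the deposited expression table as the protein-coding rows whose symbol starts with NDUFA, NDUFB, NDUFC, NDUFS, NDUFV or UQCR, or is CYC1. The rule gave 57 of the 58676 genes in the table and used no measured value. RNA had been sequenced from A549 cells, an established line from a human lung carcinoma, in 12 libraries that form 6 groups of 2. A control line was compared with KO1 and KO2, lines in which NFE2L1 had been knocked out. Each line received either DMSO as vehicle or 200 nM bortezomib, which inhibits the proteasome, for 4 h. All 6 groups share the A549 background and the culture medium. How the knockout lines were made, whether each is 1 clone, and whether the libraries of a group came from separate cultures is not given in the sources used here. The p-values therefore measure only the spread between libraries, which may be technical.

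Complex I takes electrons from NADH, passes them through a flavin and a chain of iron-sulphur clusters to ubiquinone, and pumps protons across the inner mitochondrial membrane. Complex III takes the electrons from ubiquinol and hands them to cytochrome c through cytochrome b, cytochrome c1 and the Rieske iron-sulphur protein. Both complexes are built from a few subunits encoded by mitochondrial DNA and many encoded in the nucleus, and complex I needs dedicated assembly factors. NFE2L1 is a transcription factor of the CNC family (its protein is also called Nrf1) that is processed and enters the nucleus when the proteasome is inhibited, and it drives proteasome subunit genes. It is a different gene from NRF1, nuclear respiratory factor 1, which is known as a regulator of respiratory chain genes.

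NFE2L1 itself was measured at 72.7 and 151 FPKM (sequenced fragments divided by gene length and by the reads assigned to genes) in the control line in vehicle and at 109 and 189 FPKM in bortezomib. It was at 8.45 and 14.8 FPKM in KO1 and 18.6 and 33.6 FPKM in KO2 in vehicle, and at 27.0 and 35.8 FPKM in KO1 and 36.7 and 50.8 FPKM in KO2 in bortezomib. All 8 knockout libraries were below all 4 control libraries, so the transcript level went with the labels. The libraries held 13211608 to 23819258 assigned reads. The 8 markers of epithelium and of A549 (keratins, EPCAM, CDH1, aldo-keto reductases and ALDH1A1) each had a mean of at least 1 FPKM. Of the 11 markers of leukocytes, endothelium, fibroblasts and erythroid cells, 2 (CD14 and COL1A1) had such a mean. The values are bulk measurements, in which fewer cells and less RNA per cell cannot be told apart.

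The 57 genes comprise 7 core subunits of complex I, 9 accessory subunits of its matrix arm and 20 of its membrane arm. They also comprise the acyl carrier protein NDUFAB1, 7 assembly factors (NDUFAF1 to NDUFAF7), 10 complex III genes and 3 genes that carry the prefix but are not complex I subunits. Those 3 are NDUFA4, which is assigned to complex IV, its relative NDUFA4L2 and the readthrough locus NDUFC2-KCTD14. The genes lie on 21 chromosomes, with 8 on chromosome 19. A mean of at least 1 FPKM over the 12 libraries, the filter for testing, was reached by 50 of the 57 genes. Over all tested genes, 12194 in number, the median of the mean FPKM was 6.09. Over the 50 tested complex I and III genes it was 13.8 FPKM.

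The highest mean was that of NDUFS5, a small accessory subunit of the membrane arm, at 88.2 FPKM, followed by CYC1 (cytochrome c1) at 80.1 FPKM and NDUFB10 at 60.3 FPKM. Those means pool libraries whose titles carry the suffix R2 with libraries that do not, and the order of the levels differed between the 2 kinds. The 6 libraries without R2 had medians of 121 FPKM for NDUFS5, 98.0 FPKM for CYC1 and 81.7 FPKM for NDUFB10. In the 6 R2 libraries CYC1 was first with a median of 64.3 FPKM, followed by the membrane-arm subunit NDUFB11 (57.4), NDUFS5 (55.3) and NDUFB10 (41.7). The tested core subunits ran from 6.93 FPKM for NDUFS1, which carries iron-sulphur clusters, to 23.3 FPKM for NDUFV1, which binds NADH and flavin. Complex III had a median of 27.3 FPKM over its 9 tested genes. The core proteins UQCRC1 and UQCRC2 had means of 38.3 and 27.3 FPKM, and the Rieske protein UQCRFS1 had a mean of 38.4 FPKM. Assembly factors were lower, with a median of 5.03 FPKM, and the highest of them was NDUFAF2 at 17.3 FPKM. The FPKM divides by the gene length in the deposited table, so the order of different genes depends on that length. For NDUFS1 the length was 12268 bases, which is all its annotated exon bases together. It had 18733 reads over the 12 libraries, and NDUFV1 had 21644 reads at a length of 4154 bases. Levels of different genes can therefore be compared only roughly.

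**Figure D1:**
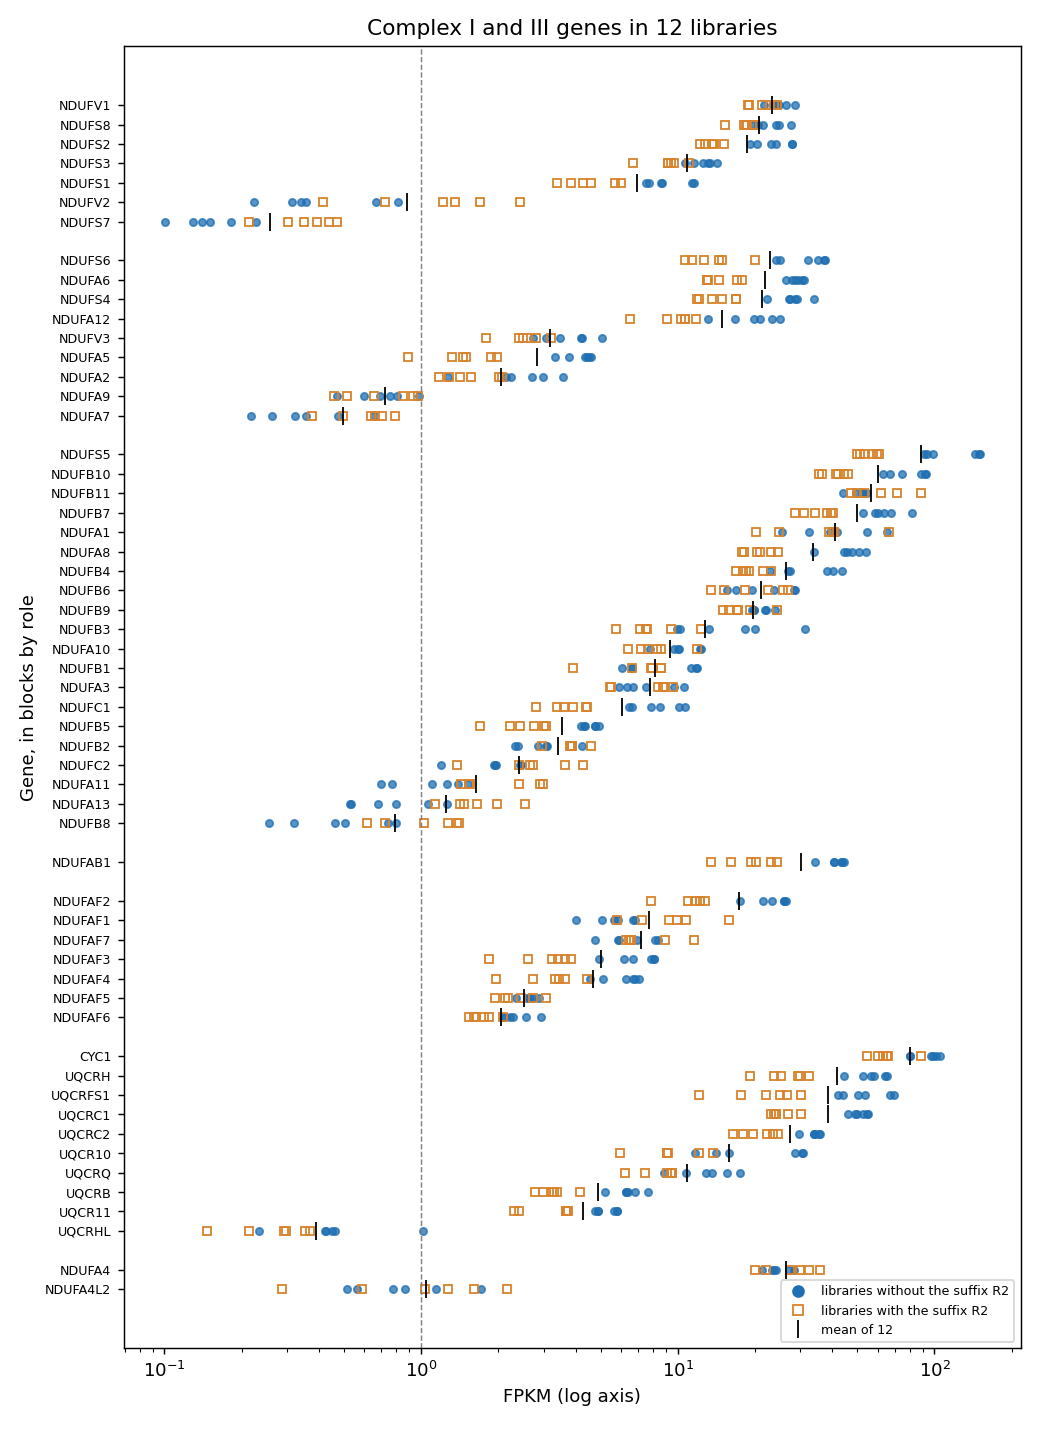
FPKM (log axis) of 56 genes in 12 libraries, in blocks by role from the core subunits at the top to complex III and the prefix-only genes at the bottom; circles are libraries without the suffix R2, squares are R2 libraries, the tick is the mean of 12 and the dashed line is 1 FPKM. NDUFC2-KCTD14, at 0 in every library, is left out; NDUFS5 and CYC1 lie at the right, and squares lie to the left of circles for most genes.

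Not tested were NDUFS7 (mean 0.258 FPKM), UQCRHL (0.391), NDUFA7 (0.496), NDUFA9 (0.724), NDUFB8 (0.792), NDUFV2 (0.879) and NDUFC2-KCTD14, which was at 0 in all 12 libraries. For the last, 3 reads in a library would be 0.152 to 0.275 FPKM, which is the upper limit that a count of 0 allows for counting error alone. NDUFS7 and NDUFV2 encode core subunits. UQCRHL is an intronless copy of UQCRH, and reads of such near-identical copies are uncertain. Except for UQCRHL, with an overlap of 0%, the coding bases of these genes are partly or wholly covered by exons of other genes. In GENCODE 29, exons of another gene on either strand overlap at least 50% of the coding bases of 8 of the 57 genes: UQCR11 and NDUFC2-KCTD14 with 100%, NDUFB8 with 85.2%, NDUFV2 with 84.7%, NDUFA7 with 78.3%, NDUFC2 with 76.9%, NDUFA9 with 67.9% and NDUFA13 with 55.2%. Those 8 genes had means of 0 to 4.27 FPKM, with a median of 0.835 FPKM. The other 49 had a median of 14.8 FPKM and ran from 0.258 to 88.2 FPKM. Over the 7 untested genes the median overlap was 78.3% of the coding bases, and over the 50 tested genes it was 0%. How reads in shared exons were counted, and whether strand was used, is not given in the sources used here, and the part of the overlap in the low values was not tested.

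**Figure D2:**
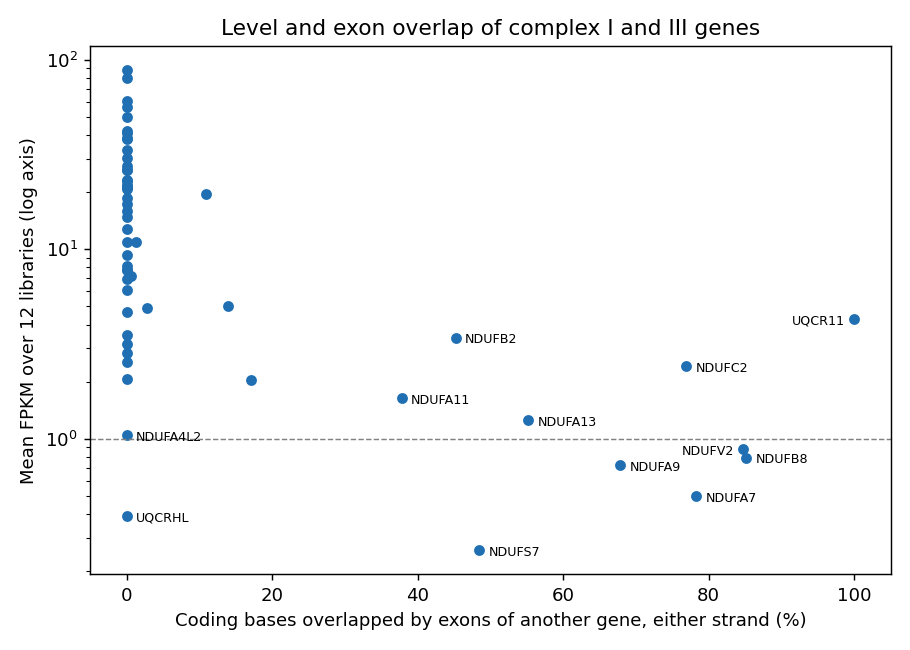
Mean FPKM over 12 libraries (log axis) against the percent of coding bases that exons of another gene overlap on either strand, for 56 genes; each point is 1 gene and the dashed line is 1 FPKM. Every named point right of 50% lies at or below 4.27 FPKM, while UQCRHL and NDUFA4L2 are low with an overlap of 0%.

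The 2 libraries of each group stood apart from each other in these genes. In each group 1 title carries the suffix R2; the other carries R1 in the knockout groups and none in the control groups, and these are called the first libraries here. What R2 stands for is not given in the sources used here. Complex I and III genes took 0.235 to 0.289% of the assigned reads in the 6 first libraries and 0.151 to 0.187% in the 6 R2 libraries. Genes encoded by mitochondrial DNA took 5.44 to 6.80% of the reads in the first libraries and 12.3 to 19.3% in the R2 libraries. Neither pair of ranges overlaps.

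UQCRFS1, the Rieske protein, had the largest drop, from a median of 51.8 FPKM in the first libraries (42.3 to 69.8) to 23.5 FPKM in the R2 libraries (12.1 to 30.1). Its difference was -1.28 on the log2(FPKM + 1) scale (SE 0.12, adjusted p = 8.64e-06, limma with a term for R2). NDUFS6, a zinc-binding accessory subunit, went from 33.6 FPKM (24.1 to 37.5) to 13.6 FPKM (10.7 to 20.0), a log2 difference of -1.14 (SE 0.14). NDUFA8, a membrane-arm subunit, went from 46.6 FPKM (33.9 to 54.3) to 20.6 FPKM (17.8 to 24.7), a log2 difference of -1.10 (SE 0.10). For these 3 genes all R2 libraries lay below all first libraries. That held for 23 of the 50 tested genes, and the share was 21.3% over all tested genes. None of the 50 had all R2 libraries above, against 8.65% of all genes.

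By the test for R2, 35 of the 50 genes were lower and 4 were higher, where 78.4% of all genes were called and 48.2% were called lower. All 7 tested accessory subunits of the matrix arm and all 9 tested complex III genes were called lower, as were 4 of 5 core subunits and 10 of 19 membrane-arm subunits. The 4 higher genes were the assembly factor NDUFAF1 (log2 difference 0.65, SE 0.11, adjusted p = 0.000354), NDUFA13 (0.57, SE 0.10), NDUFA11 (0.55, SE 0.10) and NDUFC2 (0.34). Of these 4, NDUFA13, NDUFA11 and NDUFC2 are membrane-arm subunits with overlapped coding bases (37.8% in NDUFA11), while those of NDUFAF1 are not overlapped. UQCR11, whose coding bases are wholly overlapped, was called lower. NDUFA13 reached the filter of 1 FPKM only through its R2 libraries (median 1.56 FPKM, beside 0.739 FPKM in the first libraries). Its call is therefore not independent of the filter. The median log2 difference was -0.62 over the 50 genes and -0.21 over all genes. With mitochondrially encoded genes left out and the rest rescaled, the medians were -0.47 and -0.08, and of 51 genes then tested 30 were called lower and 9 higher. With quantile normalization the medians were -0.47 and -0.11, with 32 lower and 8 higher. The shares of all genes called under these scalings are not given, so only the medians can be set beside all genes. The higher mitochondrial share in R2 moved with the lower share of these genes; its part in the difference was tested only by that rescaling.

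**Figure D3:**
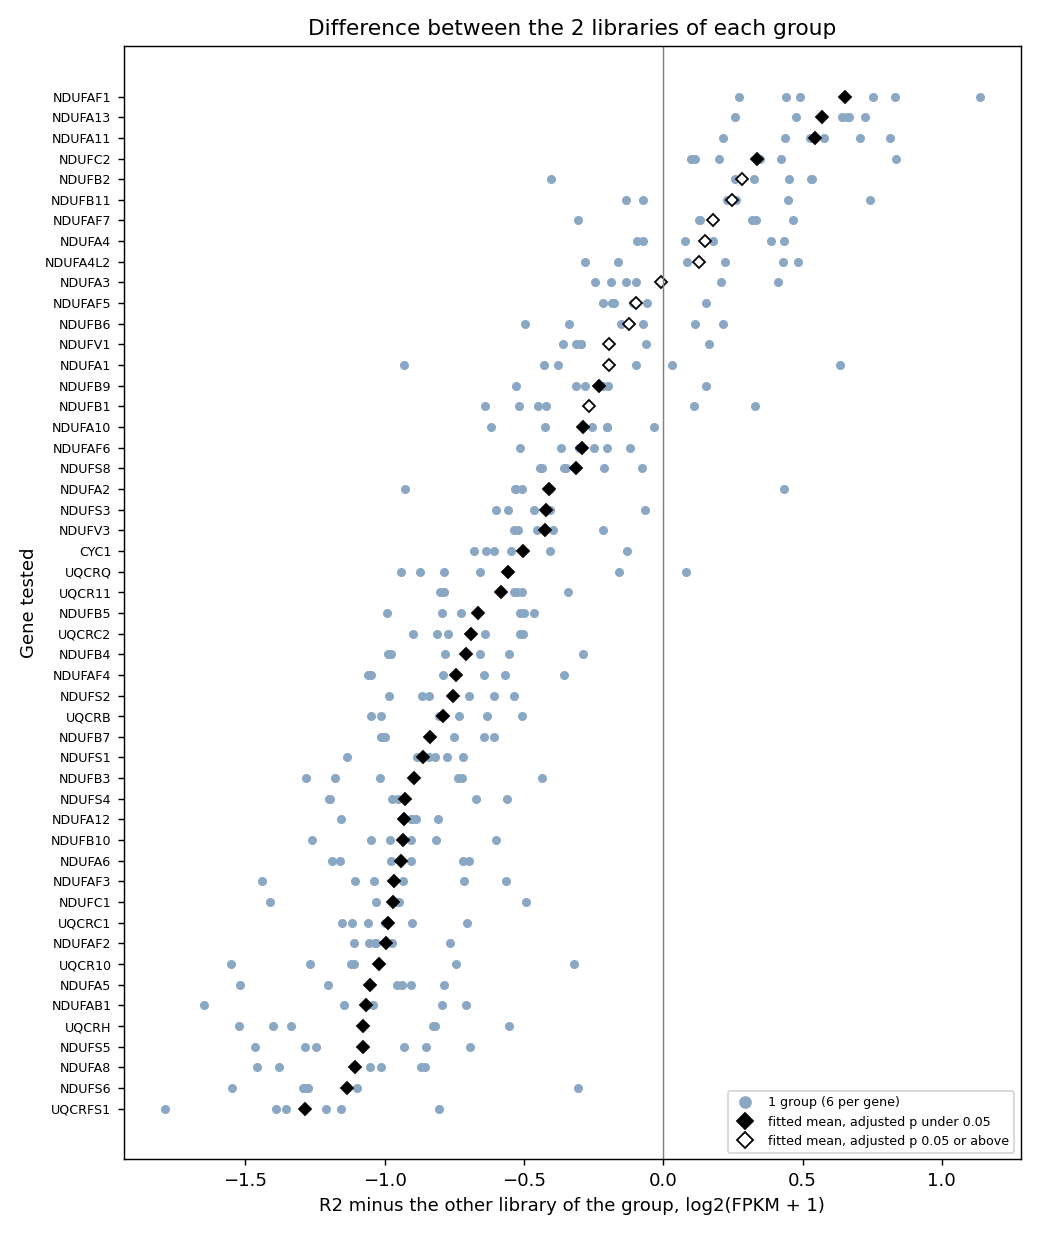
Difference between the R2 library and the other library of each group on the log2(FPKM + 1) scale for the 50 tested genes; the 6 light points per gene are the 6 groups and the diamond is the fitted mean, filled where the adjusted p was under 0.05. The fitted means run from -1.28 for UQCRFS1 to 0.65 for NDUFAF1, and 41 of 50 lie below 0.

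Because the R2 difference was shared by all groups, comparisons are given without and with a replicate block, that is, with libraries compared within the R2 and the first libraries. Without the block, limma called 0 of the 50 genes after bortezomib in the control line, where it called 0.467% of all genes, 0 in KO1 (0.238% of all genes) and 0 in KO2 (0.32% of all genes). At an unadjusted p under 0.05 there were 1, 2 and 1 genes, and voom on the recovered reads also called 0 in each. Counts at an unadjusted p are given here and below without the share of all genes at that threshold. No excess can be read from them. With the block, the control line had 7 calls (1 higher, 6 lower), KO1 had 6 (2 higher, 4 lower) and KO2 had 6 (1 higher, 5 lower). The shares of all genes called were 32.5%, 27.9% and 27%, and the shares called lower were 16.5%, 13.8% and 14.2%. The 7, 6 and 6 calls are below those shares of 50 genes. The control line gave a median log2 fold change of -0.21 over the 50 genes, beside -0.01 over all genes. KO1 gave 0.03 beside 0.00, and KO2 gave -0.11 beside -0.02. The split of higher and lower calls moved with the scaling. Quantile normalization gave 2 and 6 in the control line, 4 and 4 in KO1 and 2 and 4 in KO2. Leaving out mitochondrially encoded genes gave 2 and 5 in the control line. The shares of all genes called under these scalings are not given.

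NDUFB6 and UQCR10 were called lower in all 3 lines with the block, while 14 genes were called in at least 1 line and 36 in none. The shares of all genes called in all 3 lines or in at least 1 line are not given. No excess can be read from these counts. NDUFB6 (ENSG00000165264; chromosome 9, 32552999 to 32573184, minus strand, GRCh38) encodes an accessory subunit of the membrane arm. Its vehicle libraries held 28.3 and 26.9 FPKM (control), 23.7 and 25.7 FPKM (KO1) and 28.5 and 22.4 FPKM (KO2). Its bortezomib libraries held 15.6 and 18.2 FPKM (control), 16.9 and 15.1 FPKM (KO1) and 19.5 and 13.5 FPKM (KO2). All 6 bortezomib libraries lay below all 6 vehicle libraries. NDUFB6 was the only 1 of the 50 genes with that order, and none had the reverse order; over all genes the shares were 5.4% and 4.35%. The blocked log2 fold changes were -0.68, -0.60 and -0.61 (SE 0.18 each, adjusted p = 0.0167, 0.0317 and 0.031, limma); without the block the adjusted p-values were 0.449, 0.642 and 0.634. Its R2 difference was small, at -0.12 (SE 0.10).

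UQCR10 (ENSG00000184076; chromosome 22, 29767369 to 29770413, plus strand, GRCh38) encodes a small subunit of complex III. It was at 30.8 and 13.7 FPKM in vehicle and 15.8 and 9.04 FPKM in bortezomib in the control line, first library and R2 in that order. In KO1 it was at 28.5 and 9.06 FPKM in vehicle and 14.1 and 5.98 FPKM in bortezomib. In KO2 it was at 30.5 and 12.1 FPKM in vehicle and 11.7 and 9.15 FPKM in bortezomib. The vehicle and bortezomib libraries overlap in the control line and in KO1, because each R2 vehicle library was lower than the first bortezomib library; within each of the 6 pairs the bortezomib library was lower. The blocked log2 fold changes were -0.73, -0.75 and -0.84 (SE 0.24 each, adjusted p = 0.0432, 0.0445 and 0.0299, limma), and the unblocked adjusted p-values were 0.779, 0.85 and 0.842.

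The sequence before the start of these 2 genes is shown because they were the members called in every line. It was read from RefSeq (GRCh38.p14), in the direction of the gene, and ends at the base before the start in the deposited table, or before the RefSeq start where that comes first. The NDUFB6 stretch is chr9:32573185-32573409 on the minus strand and the UQCR10 stretch is chr22:29767119-29767368 on the plus strand. The promoter windows of both genes, 250 bases before to 50 after the RefSeq start, were searched on both strands for 3 motifs: CGCATGCG, the core of the nuclear respiratory factor 1 motif, CCGGAAG, an ETS core, and TGACNNNGC, a motif of CNC and MAF factors. Neither window held any of the 3, so no base is in capitals; that says only that these letters are not in these windows.
NDUFB6: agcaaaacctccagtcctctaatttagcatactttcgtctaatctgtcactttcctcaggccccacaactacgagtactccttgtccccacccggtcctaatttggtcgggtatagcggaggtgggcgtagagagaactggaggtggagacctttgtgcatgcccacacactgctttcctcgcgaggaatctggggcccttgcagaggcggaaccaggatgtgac
UQCR10: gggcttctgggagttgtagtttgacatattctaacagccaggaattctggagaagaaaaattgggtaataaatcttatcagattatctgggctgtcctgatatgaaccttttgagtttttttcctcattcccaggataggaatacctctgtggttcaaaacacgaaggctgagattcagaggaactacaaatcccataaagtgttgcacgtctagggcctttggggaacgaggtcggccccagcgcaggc

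Other membrane-arm subunits were called in some of the lines. NDUFB3 was at 31.3 and 12.3 FPKM in vehicle and 13.3 and 7.56 FPKM in bortezomib in the control line, where it fell by 0.90 on the log2 scale (SE 0.20, adjusted p = 0.00706). It fell by 0.65 in KO2 (SE 0.20, adjusted p = 0.0352), and in KO1 the log2 change was -0.56 (SE 0.20, adjusted p = 0.0581). NDUFA1, encoded on the X chromosome, was at 65.2 and 66.7 FPKM in vehicle and 25.4 and 40.1 FPKM in bortezomib in the control line, with no overlap. Its log2 change there was -1.02 (SE 0.29, adjusted p = 0.0223, limma). In KO1 and KO2 it was -0.50 and -0.71 and not called. Exons of RNF113A on the opposite strand overlap 44.5% of the exon bases of NDUFA1, and exons of FAM126B overlap 19.8% of those of NDUFB3. The overlaps lie outside the coding bases. Without a stated strand setting reads cannot be told apart there. NDUFB4 (-0.55) and NDUFA12 (-0.38), a matrix-arm subunit, were also called lower in the control line, and NDUFA13 (0.55) was called higher there. In KO1 the other calls were NDUFB1 (-0.86) and NDUFC2 (-0.63) lower, and NDUFAF2 (0.54) and NDUFA11 (0.56) higher. In KO2 they were NDUFAF1 (-0.66) and NDUFV3 (-0.65) lower and NDUFA4L2 (0.74) higher.

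**Figure D4:**
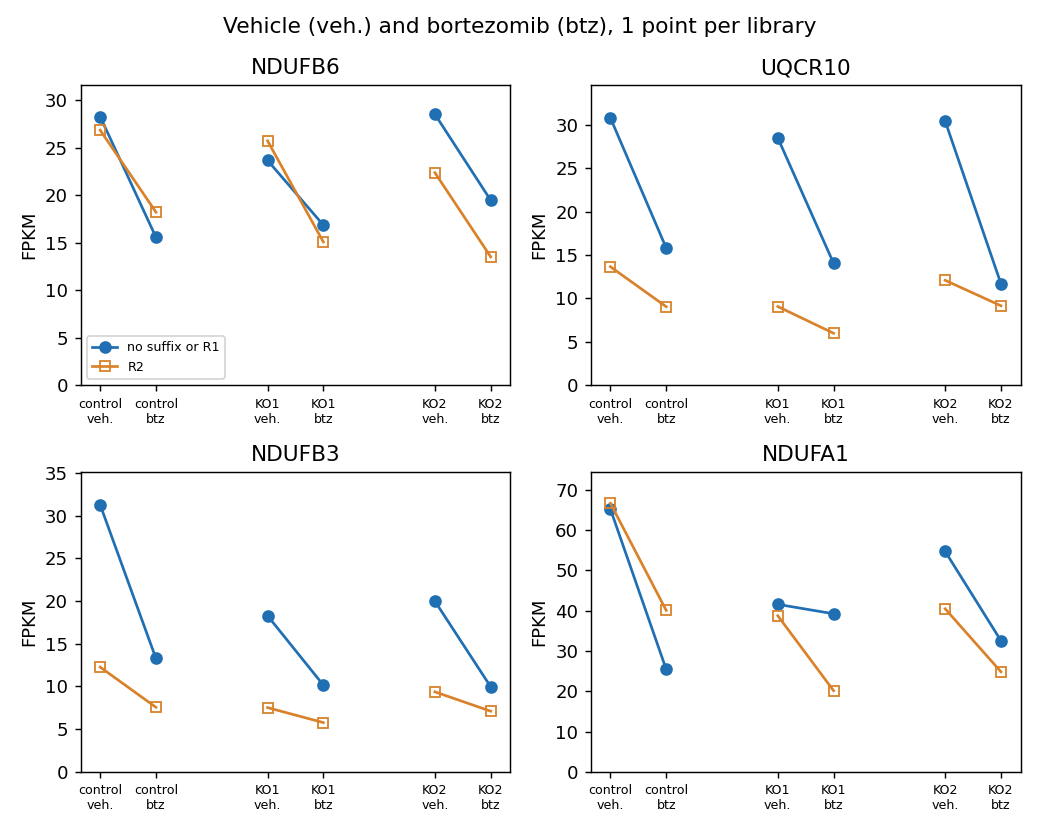
FPKM of NDUFB6, UQCR10, NDUFB3 and NDUFA1 in vehicle (veh.) and bortezomib (btz) libraries of the control, KO1 and KO2 lines; each point is 1 library and each line joins a vehicle library to the bortezomib library of the same suffix (filled circles first libraries, open squares R2). All 24 lines slope down, and for UQCR10 and NDUFB3 the R2 lines lie below the first lines in every line.

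The mean of the 3 bortezomib responses, a contrast added after the data were seen, was estimated from 6 libraries against 6. Without the block 1 gene was called, NDUFA4L2 (log2 fold change 0.59, adjusted p = 0.0388, limma), where 11.6% of all genes were called. An unadjusted p of 0.05 was passed by 5 of the 50. NDUFA4L2 reached the filter of 1 FPKM only through its bortezomib libraries. Its group means in control, KO1 and KO2 were 0.684, 0.426 and 0.774 FPKM in vehicle and 1.20, 1.23 and 1.94 FPKM in bortezomib. The calls of NDUFA4L2, here and in KO2, are therefore not independent of the filter. With the block 19 of the 50 genes were called, 14 lower and 5 higher, where 54.9% of all genes were called and 27.8% were called lower. Of the 19 tested membrane-arm subunits 9 were lower and 2 were higher. None of the 5 core subunits was called, and of the complex III genes UQCR10 and CYC1 were lower and UQCRC2 was higher. The lowest were UQCR10 (-0.77, SE 0.14, adjusted p = 0.0011), NDUFA1 (-0.74, SE 0.17, adjusted p = 0.00375) and NDUFB3 (-0.70, SE 0.11, adjusted p = 0.000525). The highest were NDUFA4L2 (0.59, SE 0.13, adjusted p = 0.00327), NDUFA11 (0.48, SE 0.10, adjusted p = 0.00287) and the assembly factor NDUFAF7 (0.28, SE 0.10, adjusted p = 0.0413). The lower share of calls was 14 of 19 here and 12 of 20 with quantile normalization. In 13 of the 50 genes the bortezomib library was lower in all 6 pairs, and in 4 it was higher in all 6. Over all tested genes the shares were 23.8% lower and 24.8% higher in all 6 pairs.

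These counts with the block depended on single libraries. In the control line the count was 0 without the first bortezomib library, 2 without the R2 vehicle library, and 3 or 4 without the R2 bortezomib library, either KO1 bortezomib library or either KO2 vehicle library. In KO1 it was 0 without the R2 bortezomib library and 1 without the first bortezomib or the R2 vehicle library. In KO2 it was 0 without the first vehicle library, 1 without the R2 vehicle library, and 2 or 3 without the first or the R2 bortezomib library. The mean over the lines had 11 calls without the first KO2 vehicle library, 12 without the R2 KO2 vehicle library and up to 19 without another.

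The comparisons of knockout with control in vehicle set each knockout line beside the control line without bortezomib. Loss of NFE2L1 cannot be told apart there from other differences between the lines. Without the block limma called 0 of the 50 genes in KO1 (0.213% of all genes), 0 in KO2 (0.23% of all genes) and 0 for the mean of both lines (0.344% of all genes). No gene of the 50 had an unadjusted p under 0.05 in these 3 comparisons, and voom called 0. With the block, 2 genes were lower in KO1, where 7.96% of all genes were called. An unadjusted p under 0.05 was reached by 10 of the 50. The shares of all genes in this paragraph are at the adjusted p, so they are no measure for the unadjusted counts. In KO2 0 genes were called (4.89% of all genes; 3 of the 50 had an unadjusted p under 0.05). For the mean 0 genes were called (8.21% of all genes; 5 of the 50 had an unadjusted p under 0.05), and voom with the block called 2 lower. The median log2 fold change of the 50 genes was -0.18 in KO1 and -0.02 in KO2, beside 0.02 and 0.06 over all genes. The KO1 and KO2 comparisons share the 2 control libraries.

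The 2 genes lower in KO1 were UQCRFS1 and NDUFAF2. UQCRFS1 (ENSG00000169021; chromosome 19, 29205321 to 29213541, minus strand, GRCh38) was at 67.0 and 24.9 FPKM in the control line in vehicle, 44.1 and 12.1 FPKM in KO1 and 69.8 and 26.7 FPKM in KO2. The KO1 value was below the paired control value (R2 with R2, R1 with unnumbered) in both pairs, and the KO2 values were slightly above. Its blocked log2 fold change was -0.79 in KO1 (SE 0.20, adjusted p = 0.0411, limma) and 0.08 in KO2 (SE 0.20, adjusted p = 0.89). The difference between the 2 knockout lines was not tested.

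NDUFAF2 (ENSG00000164182; chromosome 5, 60945129 to 61153037, plus strand, GRCh38) encodes an assembly factor that resembles the subunit NDUFA12 and holds its place until late in the assembly of complex I. In vehicle it was at 25.9 and 12.7 FPKM (control), 17.5 and 7.89 FPKM (KO1) and 23.4 and 10.9 FPKM (KO2). Its blocked log2 fold change was -0.58 in KO1 (SE 0.13, adjusted p = 0.0245, limma) and -0.17 in KO2 (SE 0.13, adjusted p = 0.552). Both KO lines were below the control in both pairs, an order that 10 of the 50 genes had in vehicle. The share of all genes with that order is not given. In bortezomib NDUFAF2 was at 21.4 and 12.2 FPKM (control), 26.3 and 11.7 FPKM (KO1) and 25.9 and 12.2 FPKM (KO2). The KO1 vehicle libraries also enter the higher call of NDUFAF2 after bortezomib in KO1, so these calls are not independent.

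The promoter window of NDUFAF2 held the CNC-MAF type motif, and its upstream part is shown because NFE2L1 is a CNC factor. The second sequence, from NDUFS6, holds the core of the nuclear respiratory factor 1 motif and is shown as an example of it. Capitals mark the motif. The NDUFAF2 stretch is chr5:60944955-60945128 and the NDUFS6 stretch is chr5:1801157-1801399, both on the plus strand (RefSeq, GRCh38.p14). A CNC-MAF type match at the other end of the NDUFS6 window, on the opposite strand, runs past the printed end and is not marked.
NDUFAF2: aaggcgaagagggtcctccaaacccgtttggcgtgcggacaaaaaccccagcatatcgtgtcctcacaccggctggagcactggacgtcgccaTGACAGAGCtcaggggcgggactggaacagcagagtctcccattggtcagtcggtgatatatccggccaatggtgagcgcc
NDUFS6: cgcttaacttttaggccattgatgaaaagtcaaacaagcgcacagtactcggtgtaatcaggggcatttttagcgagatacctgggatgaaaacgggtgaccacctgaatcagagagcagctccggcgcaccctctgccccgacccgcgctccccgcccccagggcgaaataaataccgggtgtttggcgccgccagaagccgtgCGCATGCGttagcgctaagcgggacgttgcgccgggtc

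Of the 57 genes 46 had a promoter window in the RefSeq table. The CNC-MAF type motif was in 10 of the 46 windows (21.7%), in 15.5% of the windows of tested genes and in 13.6% of all 27305 windows. The nuclear respiratory factor 1 core was in 5 windows (10.9%), those of NDUFA8, NDUFAF5, NDUFB4, NDUFS6 and NDUFS7, against 4.10% of tested genes and 2.19% of all windows. The ETS core was in 9 windows (19.6%), against 20.5% of tested genes and 10.7% of all windows. A match describes letters in a window and is not a binding site. The windows were not compared by a test. Of the members lower in KO1, NDUFAF2 held the CNC-MAF type motif, and the other, UQCRFS1, held none of the motifs searched. The CNC-MAF type motif was also in the windows of NDUFA1, NDUFA13, NDUFA2, NDUFA3, NDUFA9, NDUFS4, NDUFS6, UQCR11 and UQCRC1. Of these, NDUFA9 was not tested and the others were not called in KO1 or KO2 in vehicle. Whether NFE2L1 acts on NDUFAF2 was not tested.

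In bortezomib, the mean of both knockout lines was compared with the control line. Without the block 0 of the 50 genes were called (0.164% of all genes), 0 had an unadjusted p under 0.05 and voom called 0. With the block 2 genes were called, where 12.7% of all genes were. NDUFA12 (ENSG00000184752; chromosome 12, 94897055 to 95003770, minus strand, GRCh38), the matrix-arm subunit that takes the place of NDUFAF2, was at 13.1 and 6.52 FPKM (control), 23.3 and 11.7 FPKM (KO1) and 20.8 and 10.7 FPKM (KO2). It was higher in both knockout lines in both pairs, an order that 11 of the 50 genes had in bortezomib. The share of all genes with that order is not given. Its log2 fold change was 0.70 (SE 0.11, adjusted p = 0.00372, limma). In vehicle the same comparison gave 0.29 (SE 0.11, adjusted p = 0.157). The control libraries in bortezomib also enter the lower call of NDUFA12 after bortezomib in the control line, so the 2 calls are not independent.

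NDUFS1 (ENSG00000023228; chromosome 2, 206114817 to 206159603, minus strand, GRCh38), the largest core subunit, was at 11.6 and 6.0 FPKM in bortezomib in the control line, beside 7.53 and 3.84 FPKM (KO1) and 7.71 and 4.29 FPKM (KO2). Its blocked log2 fold change was -0.51 (SE 0.12, adjusted p = 0.0195, limma). In vehicle it was at 11.4 and 5.70 FPKM (control), 8.66 and 3.39 FPKM (KO1) and 8.57 and 4.59 FPKM (KO2), a log2 fold change of -0.40 (SE 0.12, adjusted p = 0.0648) that was not called. All 8 knockout libraries were below the control library of the same treatment they were paired with (R2 with R2, R1 with unnumbered). The same held for NDUFA10, NDUFAF7, NDUFB3 and NDUFB9, named here after their values were seen. The share of all genes with that order is not given. Exons of an antisense gene and of EEF1B2 on the opposite strand overlap the NDUFS1 locus, and without a stated strand setting reads cannot be told apart there.

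**Figure D5:**
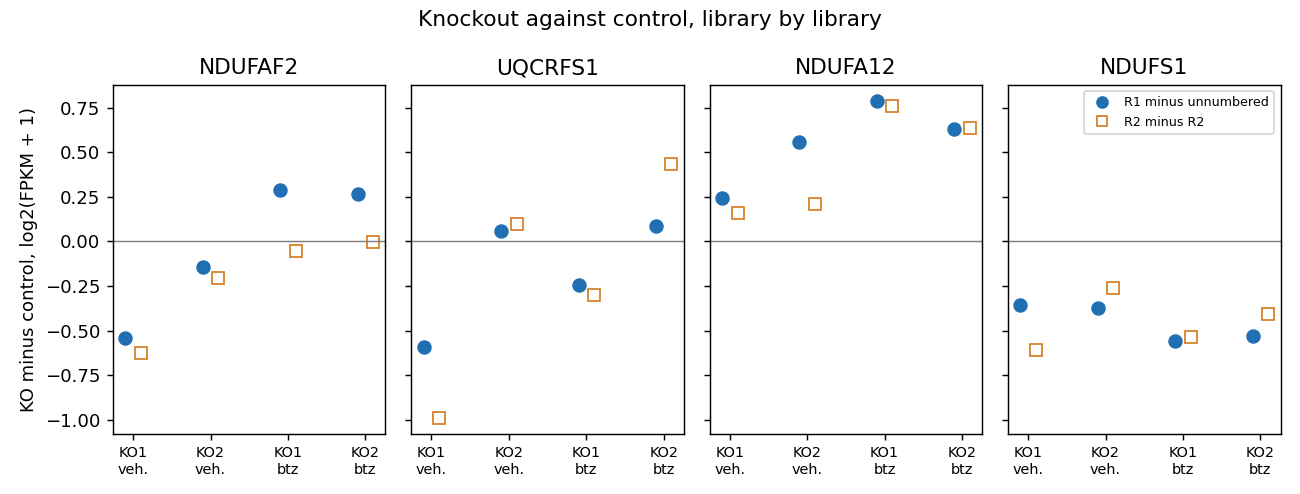
Knockout minus control on the log2(FPKM + 1) scale for NDUFAF2, UQCRFS1, NDUFA12 and NDUFS1 in vehicle (veh.) and bortezomib (btz); each point is 1 knockout library minus the control library of the same suffix (filled circles R1 minus unnumbered, open squares R2 minus R2). NDUFA12 lies above 0 and NDUFS1 below 0 in all 8 points, while UQCRFS1 lies below 0 in KO1 only.

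These counts too rested on few libraries. The 2 calls in KO1 in vehicle became 0 without either control vehicle library, the R2 KO1 vehicle library or either KO2 vehicle library. They became 1 without either bortezomib library of the control line or of KO1, and with the mitochondrially encoded genes left out. The 2 calls in bortezomib became 0 without the first control bortezomib library and 1 without the R2 control or either KO1 bortezomib library.

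The interaction of knockout and bortezomib asks whether bortezomib changed a gene differently in the knockout lines than in the control line. It was called for 0 of the 50 genes without the block and 0 with it, and the share of all genes called was 0% in both fits. An unadjusted p under 0.05 was reached by 5 of the 50 genes in the blocked fit and by 0 in the other, and voom called 0. The share of all genes at that unadjusted p is not given. The blocked interaction ran from -0.46 for NDUFA13 to 0.63 for NDUFAF4 on the log2 scale.

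Other genes of the respiratory chain were read from the same blocked fit, in which 27.8% of all genes were called lower and 27% higher for the mean over the 3 lines. After bortezomib, by that mean, 9 of 14 other assembly factors of complexes I and III were lower and 1, ECSIT, was higher, with a median log2 fold change of -0.38. Complex II had 2 of 4 genes lower, nuclear complex IV 4 of 10, nuclear complex V 3 of 13 tested, and the mitochondrially encoded complex I and III genes 2 of 8; none of these lists had a gene called higher. Complex V and the mitochondrially encoded genes were near or below the share called lower over all genes. Among 7 tested regulators of respiratory chain genes 3 were higher and 0 lower. GABPB1, a subunit of the ETS factor GABP, had the highest fold change of these in each line, with log2 fold changes of 0.96 (control), 0.87 (KO1) and 0.75 (KO2). PPARGC1B, a coactivator in the same list, was under the filter and not tested, and is named after its values were seen; it was at 0.709 to 1.27 FPKM in the 6 vehicle libraries and at 0.200 to 0.408 FPKM in the 6 bortezomib libraries, with no overlap. Between R2 and first libraries, where 48.2% of all genes were called lower and 30.2% higher, all 8 mitochondrially encoded genes were higher, with a median log2 difference of 1.35. All 4 complex II genes, 8 of 10 complex IV genes and 10 of 13 complex V genes were lower, as were 5 of 7 regulators.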

How the data were processed

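RNA sequencing was done on 12 libraries of A549 cells in 6 groups of 2. The authors deposited FPKM values for 58676 genes with a gene length each; per the submitters' processing notes CASAVA, STAR 2.5, HTSeq 0.6.1 and DESeq2 were used, with the build hg19. The positions in the deposited table match GRCh38 instead: all 58676 gene IDs are in GENCODE 29, 95.2% at the same position. FPKM times length gave whole reads (within 0.1 of a read) for 100% of values, hence the depth of each library. Groups came from the labels. Genes with a mean of at least 1 FPKM (12194) were fitted in limma 3.58.1 (R 4.3.3) on log2(FPKM + 1) with 1 mean per group and an eBayes trend; a gene was called at a Benjamini-Hochberg adjusted p-value under 0.05 over all genes. Fold changes are on that scale, which understates low genes.

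The members and lists were chosen with earlier results of these data known. The labels state no pairing, and libraries were paired by the suffix R2. The R2 difference of 2 groups correlated across genes at 0.696 to 0.89 over 15 pairs of groups, with a median of 0.811. Genes are not independent replicates. The correlation shows a shared R2 difference. It does not show that an unnumbered control library is the partner of an R1 library. The block put unnumbered control libraries on the level of R1. Named genes are NFE2L1, the 3 members with the highest and the 3 with the lowest mean FPKM, every member called without the block, the 3 highest and 3 lowest called with it, and the extremes of a list; NDUFAF4, the genes called in single lines beyond these, the lines not called for a named gene, the further complex I and III genes given by level, overlap or motif, and NDUFA12 in vehicle were chosen after their values were seen. Alternatives were a block with 3 levels, a pseudocount of 0.1, no filter, quantile normalization, leaving out mitochondrially encoded genes, voom on the recovered reads, and leaving out each library. The same settings with the block kept, and the mean over the 3 lines, were chosen after seeing the data. NDUFAF8 was not analysed here. Scripts were tested on simulated data (Python 3.11.15).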

Additional observations from a re-analysis of the deposited data

Results flagged for a closer look

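In 2 of the 50 tested genes, both assembly factors of complex I, the bortezomib library was lower than its vehicle partner in both pairs of the control line and higher in all 4 pairs of the knockout lines. Over all 12194 tested genes 1.16% had that pattern. The opposite pattern was found in 0 of the 50 genes and in 1.31% of all genes. For NDUFAF2 the log2 interaction with the block was 0.50 (adjusted p = 0.301, limma). For NDUFAF4, which acts in the early assembly of complex I, it was 0.63 (adjusted p = 0.35). NDUFAF4 was at 6.71 and 3.45 FPKM in vehicle and 4.53 and 3.32 FPKM in bortezomib in the control line, at 5.11 and 1.95 FPKM and 6.26 and 3.65 FPKM in KO1, and at 6.80 and 2.74 FPKM and 7.04 and 4.42 FPKM in KO2. Neither interaction passed the test over all genes. That of NDUFAF2 uses the KO1 vehicle libraries, which also enter the calls of this gene in KO1.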

How the results depend on the processing

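With the replicate block the counts of called members, 0 without it, were 7, 6 and 6 after bortezomib in the control line, KO1 and KO2, 2 for KO1 in vehicle and 2 for the knockout mean in bortezomib. For the mean over the 3 lines the count was 1 without and 19 with the block. With a block of 3 levels the counts were 7, 5, 7, 17 (mean of lines), 2 (KO1), 1 (knockout mean in vehicle) and 1 (in bortezomib). With voom and the block they were 8, 7, 9, 20, 5, 2 and 2 in that order. Without the block the count for the mean of lines was 0 with a pseudocount of 0.1, 3 with quantile normalization, 2 without mitochondrially encoded genes, 2 with voom and 0 to 1 leaving out each library. Against the blocked counts, no filter gave 1 in each single line, 12 for their mean and 1 for KO1 in vehicle, where more genes were tested. For KO1 in vehicle quantile normalization with the block gave 5 and leaving out mitochondrially encoded genes gave 1; for the knockout mean in vehicle quantile normalization gave 2. Leaving out each library with the block gave 0 to 9 calls in the control line (4 without the R2 bortezomib, either KO1 bortezomib or the first KO2 vehicle library), 0 to 6 in KO1, 0 to 7 in KO2, 11 to 19 for their mean, 0 to 3 for KO1 in vehicle, 0 to 1 for the knockout mean in vehicle and 0 to 3 in bortezomib. The R2 count was 37 to 41 without each library. Unblocked fold changes that changed sign when 1 library was left out were those of NDUFA12 in the control line (-0.83 to 0.08 over the omissions, with 0.027 without the first vehicle and 0.075 without the R2 bortezomib library), NDUFAF2 after bortezomib in KO1 (-0.018 to 1.09), UQCR10 after bortezomib in KO1 (-1.53 to 0.027) and UQCRFS1 in KO1 in vehicle (-1.69 to 0.10); none was called. Such an omission leaves a group with R2 or first libraries only, and the lone library is assumed to vary like the others. The block changed no call in KO2 in vehicle, the knockout mean in vehicle or the interaction. Genes with few reads, such as NDUFA4L2 with 15 to 134 per library, are limited by depth.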
